A study of Homo sapiens with 4 samples.

Results

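Integrins are the cell's receptors for the extracellular matrix, each built of 1 alpha and 1 beta chain, and the adaptors of focal adhesions tie their tails to actin. A list of 36 genes was followed here, with 12 alpha chains, 7 beta chains and 17 cytoplasmic adaptors and kinases. Members were found by gene symbol after the deposited transcript rows had been matched to GENCODE annotation by identifier without version and summed per gene. Of the 36 genes, 35 had at least 1 matched row and 33 had a mean value of at least 10, among 22017 genes in all and 16523 with such a mean. ITGB6 had no matched row and was not analysed here, and ITGA8 and ITGB7 were matched but stayed under the mean of 10.

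The study measured poly(A)-selected RNA of U87 cells, an established human glioblastoma line, in 4 libraries. Of these, 2 were transfected with a mimic of tRF-3009a, a small RNA cut from the 3′ end of a tRNA, and 2 with a single-stranded form of siGL2, a control RNA directed at firefly luciferase. All 4 received 50 nM RNA with lipofectamine 2000 for 48 h, so untransfected cells were not compared. Within each group the libraries are labelled 1 and 2. The labels say neither what the number marks nor that libraries came from separate cultures, so p-values measure only the spread between these 4 libraries.

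Which matrix a cell can hold depends on its alpha chains: alpha3, alpha6 and alpha7 bind laminins, alpha1, alpha2, alpha10 and alpha11 bind collagens, and alpha5, alpha8 and alphaV bind ligands with the RGD motif such as fibronectin and vitronectin. Talins and kindlins bind the beta tail and switch the receptor on, and the kinases FAK (PTK2) and SRC signal through the scaffolds paxillin (PXN) and p130Cas (BCAR1). Integrin-linked kinase (ILK), PINCH (LIMS1) and parvin form a complex under the receptor, while vinculin, zyxin, tensins, alpha-actinins and filamin link it to actin filaments. Glioma cells use these receptors to move along the matrix of brain and vessel walls.

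The tails of alpha chains can differ between splice forms. ITGA6 is shown because its 2 measured tail forms took unlike shares of reads in the libraries, given below, although neither form passed the test. The coding sequence of ITGA6-201 ends in its exon 25, which ITGA6-202 lacks. ITGA6-202 codes on into its last exon instead, and ITGA6-201 carries those bases after its stop codon. The coding parts of both exons are shown from GRCh38 (plus strand). Capitals mark the codons of the membrane-proximal GFFKR motif that alpha tails share and the stop codon. The coding sequence of ITGA6-201, the alpha6A form, ends with chr2:172501772-172501879, and that of ITGA6-202, the alpha6B form, with chr2:172504091-172504252.
ITGA6-201: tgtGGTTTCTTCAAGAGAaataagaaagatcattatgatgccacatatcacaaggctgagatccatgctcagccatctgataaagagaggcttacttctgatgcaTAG
ITGA6-202: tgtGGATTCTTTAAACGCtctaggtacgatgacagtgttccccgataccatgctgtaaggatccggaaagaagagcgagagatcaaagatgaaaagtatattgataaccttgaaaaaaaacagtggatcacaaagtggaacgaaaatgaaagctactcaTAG

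Depth was 28860788 to 33848402 recovered reads per library. Over all genes, libraries with the same number resembled each other more than libraries of the same group: 20.8% of genes were over 2-fold apart between the controls and 21.2% between the mimics, against 4.48% between the number 1 libraries and 3.83% between the number 2 libraries. Each number holds 1 control and 1 mimic. Members are therefore described between treatments and again between numbers. Among U87 and glial genes, VIM and CD44 were high in all libraries, while the astrocyte marker GFAP (12.5 to 29.7) and the stem cell marker SOX2 (9.35 to 18.0) were close to the lower limit of the test. CDKN2A, a gene known to be deleted in this line, was read at 0 to 11.2. The pan-leucocyte gene PTPRC stayed between 2.86 and 6.72.

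Levels of different genes were compared only per length, as each transcript's value divided by its annotated length, summed per gene and scaled to 1 common total in each library (the TPM scale). On this scale U87 cells expressed a few integrin chains strongly and most others weakly. ITGA3 (GRCh38 chr17:50055968-50090481, plus strand), the laminin receptor chain, was the highest alpha chain at a length-scaled level of 904 ± 60.6 (SD, n = 4), and ITGA5, the fibronectin receptor chain, followed at 390 ± 107 (SD, n = 4). The ranges of the pair over the libraries, 821 to 961 and 294 to 528, did not overlap. Together they made up 88.6% to 91.8% of the summed level of the 12 listed alpha chains.

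Next in the order of the listed alpha chains came ITGAV at a length-scaled level of 55.7 ± 3.32 (SD, n = 4). Its lowest library lay at 52.7, above the highest library of ITGA2 at 50.7. ITGA2, a collagen receptor chain, had a level of 36.3 ± 15.3 (SD, n = 4) and overlapped with ITGA7 at 20.01 ± 5.86 (SD, n = 4). The levels of ITGA4, ITGA6, ITGA1, ITGA11 and ITGA10 had means between 1.79 and 7.17, and each overlapped with its neighbour in that order over the libraries. ITGA9 lay at 0.23 and ITGA8 at 0.0402. Of alpha chains outside the list, ITGAE had a mean level of 38.1 and ITGAX of 25.2.

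ITGB1 (chr10:32900319-33005792, minus strand), the partner of most alpha chains, led the beta chains with a length-scaled level of 847 ± 100.8 (SD, n = 4) and made up 75.2% to 78.9% of the summed beta level. ITGB3 (133 ± 5.92, SD, n = 4) and ITGB5 (112 ± 20.9, SD, n = 4), both partners of alphaV, came next with overlapping ranges of 127 to 140 and 92.2 to 134. ITGB4, ITGB8 and ITGB7 had mean levels of 1.19, 0.998 and 0.105. Over the listed chains, summed alpha levels were 1647 and 1333 in controls and 1402 and 1337 in the mimics. Summed beta levels were 1066, 1012, 1263 and 1035 in the same order. The alpha to beta ratio was thus 1.54, 1.32, 1.11 and 1.29, with a mean of 1.32 ± 0.178 (SD, n = 4), and both mimic ratios lay below the control ratios, a difference that was not tested.

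Among adaptors, FLNA (chrX:154348524-154374638, minus strand), the actin cross-linker filamin A, stood first at a length-scaled level of 710 ± 47.9 (SD, n = 4). The alpha-actinin ACTN1 (236 ± 8.81, SD, n = 4) came second and overlapped with TLN1, talin 1 (213 ± 26.0, SD, n = 4). ACTN4 at 195 and PXN at 185 had wide ranges, from 100.7 to 305 and from 102 to 287. LIMS1, ILK, VCL and ZYX lay between 118 and 167 in their means, and PTK2, PARVA, FERMT2, TLN2, BCAR1 and SRC between 25.5 and 64.9. The tensins TNS3 and TNS1 were lowest, at 6.52 and 0.591.

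**Figure D1:**
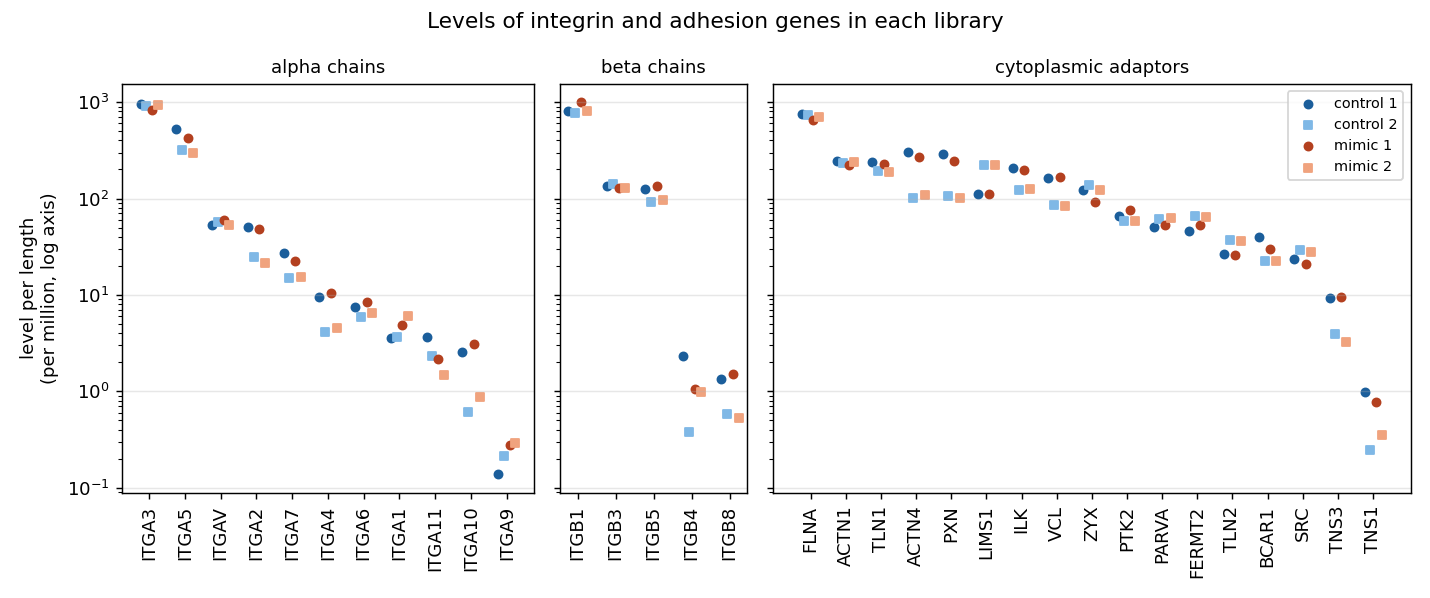
Length-scaled level (TPM scale, log axis) of the 33 tested genes in each of the 4 libraries, by class and in order of the mean. ITGA3, ITGB1 and FLNA lead their classes, with means of 904, 847 and 710, and circles (number 1) separate from squares (number 2) for genes such as ACTN4, PXN and LIMS1.

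Between mimic and control, none of the integrin or adhesion genes passed the test. With limma on log2(value + 1), 0 of the 33 tested members passed an adjusted p of 0.05, and 0% of the 16523 genes tested did. The adjusted p by limma was 1.00 for every member. At an unadjusted limit of 0.05 the count was 0 members and 26 of all genes. The edgeR and DESeq2 fits, which like the limma fit had no term for number, also called 0 genes. The members' median difference was -0.092 on the log2 scale against -0.014 over all genes. Below zero were 24 members and above it 9, beside 8884 and 7639 of all genes tested.

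Standard errors of the mimic difference ran from 0.18 for ITGB3 to 1.02 for ITGA10 on the log2 scale. The fit has no term for number, so these errors include the differences between numbers, which for ITGA10 was -2.00. VCL had a standard error of 0.48, while its mimic differences within the numbers were -0.019 and -0.061. The absence of calls therefore cannot show that the mimic left these genes unchanged. In bulk RNA, fewer cells of a type and less RNA per cell cannot be told apart.

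ZYX, zyxin, a protein that moves to actin fibres under strain, had the smallest p among members with lower values in the mimics. Its values, summed over transcripts and scaled by library, were 4699 and 5358 in controls and 3415 and 4800 in the mimics. The mimic 2 value lay inside the control range, so the groups overlapped, and the difference was -0.31 ± 0.26 (SE, n = 2 and 2) with an adjusted p of 1.00 by limma. It was -0.46 between the number 1 libraries and -0.16 between the number 2 libraries.

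ITGA11, a collagen receptor chain, gave 188 and 106 in controls and 120 and 89.9 in the mimics, a difference of -0.45 ± 0.43 (SE, n = 2 and 2). ITGA5 gave 36334 and 22728 against 28419 and 20792, a difference of -0.24 ± 0.33 (SE, n = 2 and 2). Both overlapped between groups. For ITGA5 the difference was -0.35 between the number 1 libraries and -0.13 between the number 2 libraries. Without control 1 it was 0.097, but that fit sets control 2 alone against both mimics and so mixes number with treatment. Neither passed the test, with an adjusted p of 1.00 by limma.

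In the other direction, ITGB1 was 46149 and 45816 in controls and 55317 and 46747 in the mimics. Both mimic values lay above both controls, by 0.26 between the number 1 libraries and by 0.029 between the number 2 libraries, and the difference of 0.15 ± 0.21 (SE, n = 2 and 2) had an adjusted p of 1.00 by limma. ITGA9, a receptor chain for tenascin and other ligands, was read at the lower end of the measured range, with 7.27 and 11.2 in controls and 9.89 and 13.4 in the mimics. ITGA1 gave 120 and 124 against 114 and 171, so only mimic 2 stood out, and without it the difference was -0.092 instead of 0.19.

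Groups did not overlap for 3 tested members, ITGB1 upward and ITGB3 and ACTN1 downward. Over all genes 6.19% separated upward and 6.21% downward. ITGB3 was 8473 and 9024 in controls and 7881 and 8066 in the mimics, and ACTN1 was 14053 and 14070 against 12569 and 13856. These were differences of -0.13 ± 0.18 and -0.092 ± 0.19 (SE, n = 2 and 2), each smaller than its standard error. ITGB7, which was not tested, was 8.31 and 7.84 in controls and 0 and 2.87 in the mimics.

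Highest in their classes, ITGA3 and FLNA also overlapped between groups. ITGA3 was 72811 and 69814 in controls and 60083 and 70479 in the mimics, a difference of -0.13 ± 0.21 (SE, n = 2 and 2). FLNA was 84474 and 88938 against 72213 and 84997, a difference of -0.15 ± 0.22 (SE, n = 2 and 2). For both, the mimic 1 library was the lowest of the 4. Of the 33 members, 16 were lower in the mimic and 6 higher under both numbers, and 11 had opposite signs under the 2 numbers. Over all genes tested the shares were 27.7%, 22.3% and 49.8%.

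**Figure D2:**
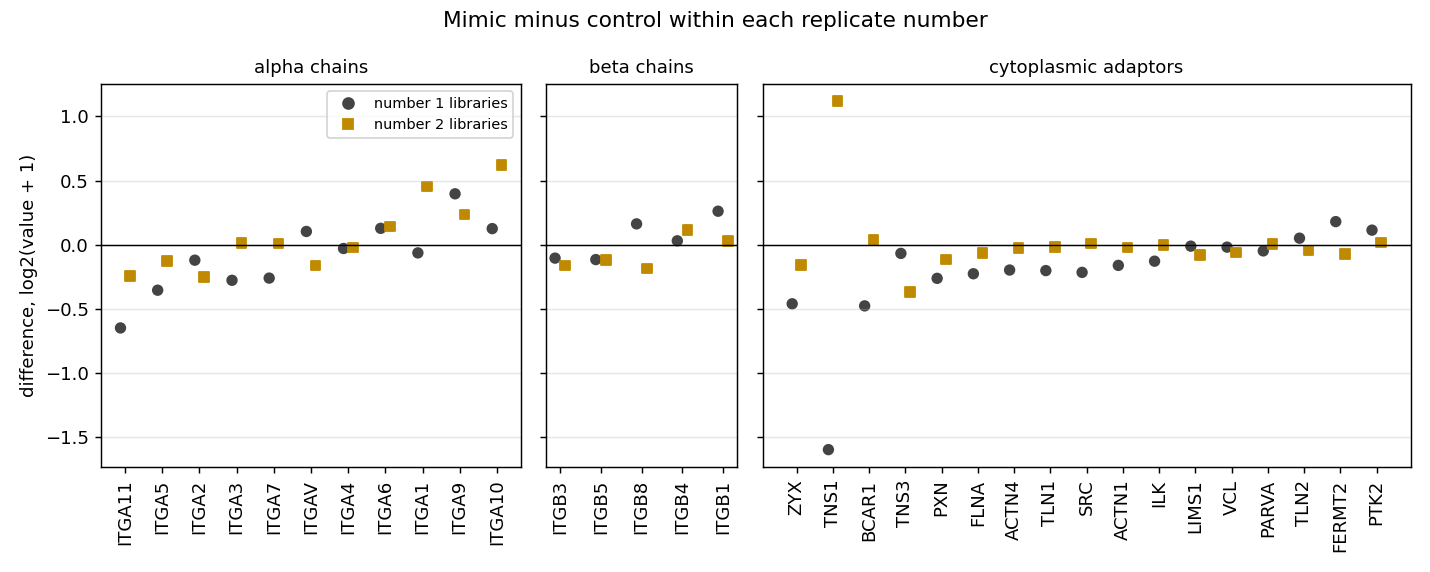
Mimic minus control in log2(value + 1) for each tested gene, between the number 1 libraries (circles) and between the number 2 libraries (squares). Over all 4 libraries the difference is below 0 for 24 genes and above 0 for 9. TNS1 lies at -1.60 and 1.12, and 11 of 33 genes have opposite signs under the 2 numbers.

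Libraries labelled 2 differed from those labelled 1 in many of these genes: 20 of 33 passed the same limma test, 15 of them lower and 5 higher in number 2. Of all 16523 genes, 50.2% passed, 24.2% lower and 26% higher. The members' median difference was -0.31 against 0.0078 over all genes. Among alpha chains 6 of 11 fell and 0 rose, among beta chains 2 of 5 fell and 0 rose, and among adaptors 7 of 17 fell and 5 rose. Differences between these counts were not tested. In the values that follow, the control of each number is given before the mimic.

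Libraries of each group supply a within-group value, and 30 of 33 members had the same sign in controls and mimics, as had 82.5% of all genes tested. The share of members called was 60.6%, beside 50.2% of all genes. Without mimic 2, 13 of 33 members passed, beside 31.2% of all genes, and without control 2, 14 did, beside 32.8%. Counting only transcripts whose version equalled that of the annotation left 11 of 31 members called, beside 27% of all genes. That setting leaves out the main transcript, the one with the highest mean, of many members. Among alpha chains these are ITGA1, ITGA2, ITGA3, ITGA4, ITGA5, ITGA7, ITGA10, ITGA11 and ITGAV. Among the others they are ITGB1, ITGB3, ITGB4, ITGB5, ITGB8, TLN1, FERMT2, PARVA, ZYX, TNS3, ACTN4 and FLNA. Where such a gene was still tested, only its remaining transcripts were used. Calls were thus lost over all genes in the same settings.

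Of the 4 collagen-binding chains, ITGA2 and ITGA10 fell. ITGA2 (chr5:52989326-53094779, plus strand) was 6309 in control 1 and 5804 in mimic 1, but 3132 in control 2 and 2633 in mimic 2. Both number 2 libraries thus had less than either number 1 library, with a difference of -1.07 ± 0.099 (SE, n = 2 and 2) and an adjusted p of 2.9e-05 by limma. ITGA10, a chain known from cartilage, followed with 211 and 230 in number 1 and 43.7 and 67.9 in number 2, the largest difference of any called member (-2.00 ± 0.24, SE, n = 2 and 2, adjusted p = 0.00015 by limma). With same-version transcripts alone, ITGA2 (-0.15, adjusted p = 0.72) and ITGA10 (-1.03, adjusted p = 0.37) did not pass limma. Left out there were ITGA2-201 and ITGA10-201, which held 96.8% to 98.6% and 83.1% to 96.1% of their gene's value. Tested singly, both were lower in number 2 (-1.10 and -2.07, adjusted p = 0.019 and 0.035 by limma). ITGA1 and ITGA11 did not pass in the first place, and their differences were 0.32 and -0.61.

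Of the 3 laminin-binding chains, ITGA7 and ITGA6 fell. ITGA7, a chain known from muscle, was 1473 and 1230 in number 1 and 879 and 885 in number 2 (-0.61 ± 0.11, SE, n = 2 and 2, adjusted p = 0.0014 by limma). ITGA6 was 672 and 734 against 532 and 587, a smaller difference of -0.33 ± 0.11 (SE, n = 2 and 2, adjusted p = 0.035 by limma), which did not pass in DESeq2 (adjusted p = 0.067). Left out in turn, control 2, mimic 1 or mimic 2 also ended the ITGA6 call, with differences of -0.26, -0.27 and -0.40, and same-version transcripts ended that of ITGA7 (-0.73, adjusted p = 0.085 by limma). ITGA3, the main chain, differed by 0.085 ± 0.11 and passed, of all alternatives run, only without control 1 (0.22, adjusted p = 0.037 by limma). Its ratio to ITGA5 per length was 1.82 and 1.95 in number 1 but 2.84 and 3.18 in number 2.

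That ratio followed ITGA5, whose values of 36334 and 28419 in number 1 stood above 22728 and 20792 in number 2. It fell by 0.56 ± 0.12 on the log2 scale (SE, n = 2 and 2, adjusted p = 0.0034 by limma) and did not pass without mimic 2 (-0.50, adjusted p = 0.089 by limma). ITGAV, which pairs with several beta chains, was 5916 and 6357 in number 1 and 6681 and 5979 in number 2, which overlap. ITGA4, a receptor chain for fibronectin and VCAM1, was 582 and 570 in number 1 against 252 and 248 in number 2 (-1.20 ± 0.12, SE, n = 2 and 2, adjusted p = 4.7e-05 by limma), and same-version transcripts gave -1.36 (adjusted p = 0.081 by limma).

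The beta chains that fell were both partners of alphaV. ITGB8, which with alphaV binds latent TGF-beta, was 177 and 198 in number 1 and 78.4 and 68.8 in number 2 (-1.33 ± 0.19, SE, n = 2 and 2, adjusted p = 0.00044 by limma). ITGB5, a vitronectin receptor chain, was 6134 and 5661 against 4498 and 4148 (-0.45 ± 0.083, SE, n = 2 and 2, adjusted p = 0.0018 by limma). Same-version transcripts gave -0.73 for ITGB8 and -0.41 for ITGB5, and the latter was -0.39 without mimic 2, none of which passed limma (adjusted p = 0.35, 0.072 and 0.057). ITGB1 and ITGB3, the most abundant beta chains, had differences of -0.13 and 0.062 and did not pass, except ITGB1 without control 1 (-0.26, adjusted p = 0.021 by limma). ITGB4, the hemidesmosome chain, stayed between 36.98 and 46.8.

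Of the 3 integrin activators listed, TLN2 and FERMT2 rose and TLN1 did not pass. TLN2, talin 2, was 2091 and 2166 in number 1 and 3412 and 3310 in number 2 (0.66 ± 0.078, SE, n = 2 and 2, adjusted p = 0.00013 by limma). FERMT2, kindlin 2, was 2392 and 2710 against 3505 and 3339 (0.43 ± 0.089, SE, n = 2 and 2, adjusted p = 0.0034 by limma), and gave 0.39 without control 2 and 0.30 with same-version transcripts (adjusted p = 0.070 and 0.30 by limma). For TLN1 the difference was -0.22 ± 0.090 with an adjusted p of 0.071 by limma. Per length, the TLN1 to TLN2 ratio was 9.18 and 8.74 in number 1 and 5.21 and 5.23 in number 2, so TLN1 stayed the main talin in all 4 libraries.

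Kinases and scaffolds went in both directions. PXN (chr12:120210439-120265771, minus strand), paxillin, was 15613 and 13020 in number 1 and 6258 and 5783 in number 2 (-1.24 ± 0.099, SE, n = 2 and 2, adjusted p = 1.2e-05 by limma). BCAR1, its fellow scaffold, was 1774 and 1274 against 1031 and 1059 (-0.52 ± 0.14, SE, n = 2 and 2, adjusted p = 0.013 by limma). Groups by number separated for both, although control 1 was well above mimic 1 for BCAR1, which did not pass without control 2 (-0.50), without mimic 2 (-0.54) or with same-version transcripts (-0.49). PTK2, focal adhesion kinase, was 3670 and 3972 in number 1 and 3059 and 3097 in number 2, a fall of 0.31, while SRC was 1457 and 1255 against 1804 and 1815, a rise of 0.42 (adjusted p by limma = 0.010 and 0.0061). Neither kinase passed when control 2 or mimic 2 was left out, with adjusted p-values by limma of 0.072 to 0.11.

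Subunits of the ILK, PINCH and parvin complex did not move together. ILK was 5780 and 5288 in number 1 and 3444 and 3436 in number 2 (-0.68 ± 0.079, SE, n = 2 and 2, adjusted p = 0.00012 by limma). LIMS1 (chr2:108534355-108687246, plus strand) was 5880 and 5835 against 12321 and 11668, the largest rise of any called member (1.03 ± 0.074, SE, n = 2 and 2, adjusted p = 6.9e-06 by limma). PARVA, alpha-parvin, was 2950 and 2853 against 3557 and 3570, a rise of 0.30 (adjusted p = 0.010 by limma) that did not pass without control 2 (0.30), without mimic 2 (0.29) or with same-version transcripts (0.33). The level of LIMS1 per length was below that of ILK in number 1 (ratios of 0.535 and 0.559) and above it in number 2 (1.84 and 1.77). LIMS1 has near-identical copies, so how its reads were divided is uncertain.

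Of the linkers, VCL and TNS3 fell. VCL (chr10:73995193-74121363, plus strand), vinculin, was 14585 and 14398 in number 1 and 7830 and 7507 in number 2, with little spread inside either pair (-0.92 ± 0.074, SE, n = 2 and 2, adjusted p = 1.3e-05 by limma). TNS3, a tensin, was 1053 and 1005 against 424 and 328 (-1.46 ± 0.14, SE, n = 2 and 2, adjusted p = 3e-05 by limma). ZYX and TNS1 had differences of 0.34 and -1.27 and did not pass. TNS1 rested on 1 library, with 116 in control 1 and 17.9, 37.8 and 40.2 in control 2, mimic 1 and mimic 2.

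The alpha-actinins separated. ACTN4 (chr19:38647649-38731583, plus strand) was 13104 and 11429 in number 1 and 4566 and 4482 in number 2 (-1.44 ± 0.086, SE, n = 2 and 2, adjusted p = 2.4e-06 by limma, the smallest of any member). ACTN1, its close relative, was 14053 and 12569 against 14070 and 13856 and did not pass. The ACTN1 to ACTN4 ratio per length was therefore 0.798 and 0.832 in number 1 and 2.34 and 2.24 in number 2. FLNA differed by 0.15 ± 0.10 and did not pass, except under quantile normalization (0.36) and without control 1 (0.27), with an adjusted p of 0.0036 and 0.025 by limma. Same-version transcripts, which leave out the main transcript FLNA-203, gave FLNA the opposite sign (-0.28).

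**Figure D3:**
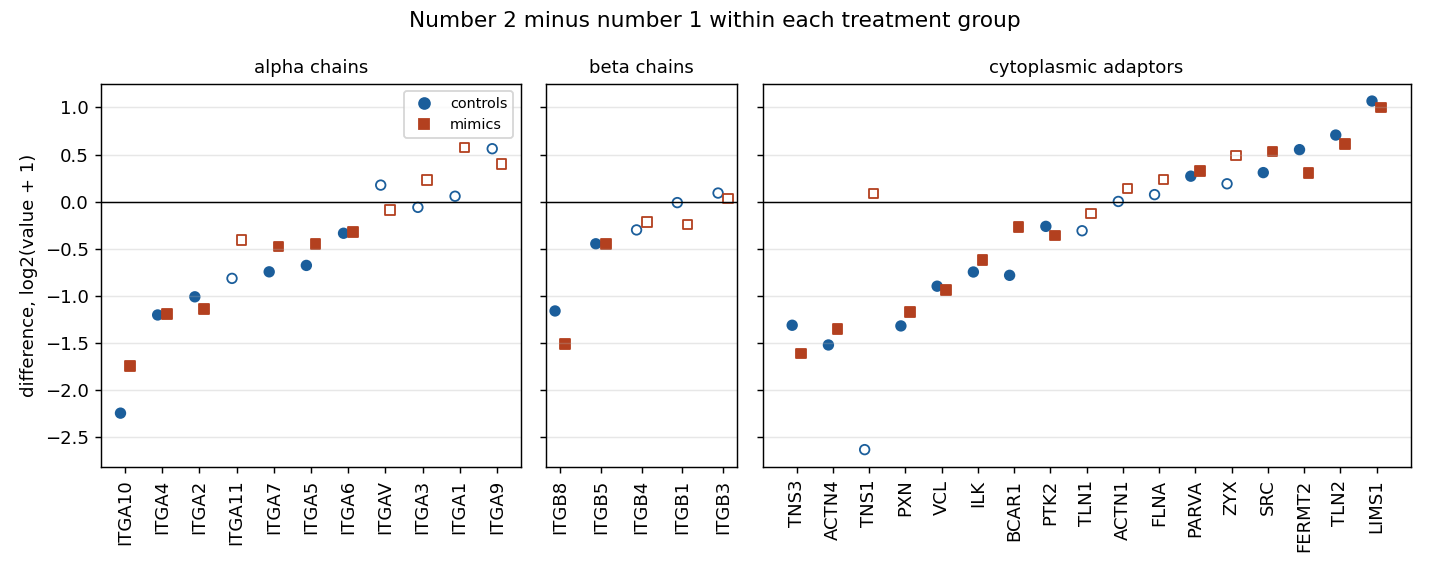
Number 2 minus number 1 in log2(value + 1) for each tested gene, in the controls (circles) and in the mimics (squares). Filled symbols mark the 20 genes that passed limma and open symbols the other 13, and the filled pairs lie on the same side of 0.

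**Figure D4:**
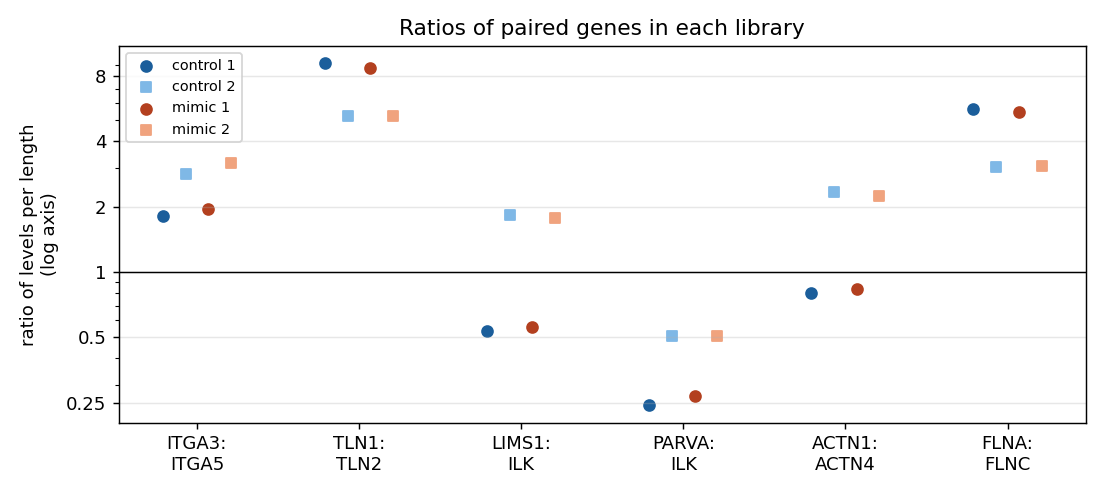
Ratios of length-scaled levels (log axis) of paired genes in each library. The number 1 libraries (circles) and the number 2 libraries (squares) separate in the 6 ratios shown, and the LIMS1 to ILK and ACTN1 to ACTN4 ratios lie on opposite sides of 1. Of ratios not shown, TLN1 to ACTN1 separated too, while TNS3 to TNS1 and ITGB1 to ITGB3 overlapped. Among the values of all 16523 genes tested, 6358 lay higher and 6159 lower in number 2 without overlap.

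Some markers of other cell types differed by number too, beside 50.2% of all genes, and their part in these results was not tested. Of 5 endothelial markers tested 4 fell in number 2, and the list's summed value was 537 and 596 in number 1 against 299 and 246 in number 2. Of 7 fibroblast and muscle markers tested, 3 fell and 1 rose, with sums of 1523 and 1395 against 1499 and 1331. Among 6 epithelial markers EPCAM fell and ESRP1 rose, the latter from 13.5 and 3.6 to 201 and 173. This rise is part of the list sums of 444 and 351 against 569 and 581, and no other marker of the list was called higher. Of 2 immune markers tested CSF1R fell, from 440 and 340 to 53.8 and 52.4, with sums of 10669 and 8277 against 8424 and 7298, nearly all of it CD68. Defining markers read at 0 in at least 1 library were THY1, CD14 and the leucocyte integrin chain ITGB2. Among U87 and glial genes, VIM, NES and CD44 fell and OLIG2 rose, with list sums of 319031 and 290547 against 148501 and 139813.

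Read transcript by transcript, fewer members passed. Of 277 matched transcripts of the members, 179 had a mean of at least 10, and 21 of them passed limma between numbers, 15 lower and 6 higher, in 13 members. Of all transcripts tested, 8.32% passed. ACTN4 had 3 called transcripts, all lower, and both LIMS1-203 and LIMS1-215 were higher. FLNA, which did not pass as a gene, had a called transcript: FLNA-201 was 11101 and 10666 in number 1 and 5948 and 5973 in number 2 (-0.87 ± 0.054, SE, n = 2 and 2, adjusted p = 0.0091 by limma), while the main transcript FLNA-203 gave 0.25 ± 0.084 and did not pass. The pair differs by the 24-base exon 29 of FLNA-203 (chrX:154357251-154357274, minus strand) and by the first exon, so values cannot be read as use of the short exon alone.
FLNA-203 exon 29: tgtcaatcggaggtcacgggctag

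The ITGA6 forms with the tail exons shown above had values on opposite sides between numbers. ITGA6-201 (alpha6A) was 582 and 650 in number 1 and 325 and 423 in number 2, and ITGA6-202 (alpha6B) was 90.4 and 84.5 against 207 and 163. ITGA6-201 held 86.6% of their reads in control 1 (95% Wilson interval 83.7% to 88.9%) and 88.5% in mimic 1 (86.1% to 90.5%). It held 61.1% in control 2 (56.6% to 65.3%) and 72.1% in mimic 2 (68.5% to 75.5%). These intervals cover counting error only. Neither transcript passed limma between numbers (adjusted p = 0.099 and 0.071), and the pair also differs in the start of the first exon and the end of the last.

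As a share of their gene, 0 of 179 member transcripts passed limma between numbers, and 0% of all 54903 did, with 16 members' transcripts and 6631 of all at an unadjusted limit of 0.05. No member transcript passed between mimic and control, as a value or as a share. Both main VCL transcripts fell. VCL-201, which holds the 204-base exon of metavinculin, an isoform known from muscle, was called lower (adjusted p = 0.010 by limma) and so was VCL-202 without it (adjusted p = 0.034 by limma). VCL-201 was assigned 81.3%, 78.6%, 76.8% and 80.9% of the gene's value in control 1, control 2, mimic 1 and mimic 2. The pair also differs in the length of the last exon, so this share cannot be read as inclusion of the exon. The exon is chr10:74111909-74112112 (GRCh38, plus strand).
VCL-201 exon 19: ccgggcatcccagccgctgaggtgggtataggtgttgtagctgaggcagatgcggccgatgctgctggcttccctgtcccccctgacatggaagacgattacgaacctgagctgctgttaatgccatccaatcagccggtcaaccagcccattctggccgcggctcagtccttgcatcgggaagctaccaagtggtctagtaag

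A wider list of 70 other focal adhesion genes was read in the same way. Of 67 tested, 0 passed between mimic and control, and 38 passed between numbers, 17 lower and 21 higher. That was 56.7% of the list beside 50.2% of all genes, with a median of -0.014 against 0.0078 over all genes. The count was 25 without mimic 2 and 22 with same-version transcripts, settings under which 31.2% and 27% of all genes passed. MYH9, a non-muscle myosin heavy chain, was 55689 and 53758 in number 1 and 26240 and 24679 in number 2 (-1.10 ± 0.081, SE, n = 2 and 2, adjusted p = 7.9e-06 by limma).

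FYN, a SRC family kinase, was 2978 and 2923 in number 1 and 5921 and 6416 in number 2, a rise of 1.06, and ITGB1BP1, which binds the beta1 tail, fell by 0.82 on the log2 scale. Between mimic and control, the smallest p-values were those of TGFB1I1, CD151, LPXN and GIT1, with differences of -0.34, -0.24, -0.23 and -0.22 and adjusted p-values of 1.00 by limma. TGFB1I1, the paxillin relative Hic-5, was 1425 and 1226 in controls and 995 and 1101 in the mimics, which do not overlap.

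Of 7 integrin chains known from leucocytes and platelets, 3 were tested, 0 passed between mimic and control, and between numbers 1 rose and 1 fell. ITGAX, a leucocyte chain, was 1078 and 952 in number 1 and 1942 and 2445 in number 2 (1.10 ± 0.12, SE, n = 2 and 2, adjusted p = 8.9e-05 by limma). Its partner ITGB2 was read at 0 to 5.67. ITGAE fell from 517 and 492 to 321 and 376.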

How the data were processed

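The 4 libraries of U87 RNA form 2 treatment groups of 2. The deposited table holds a signal per transcript that the authors scaled for library size. Tools named in the submitters' processing notes are kallisto and DESeq2, with the build hg38, and versions are not given in the sources used here. Low values were 95.6% to 99.7% whole multiples of 1 step per library (tolerance 0.1), which gave the recovered reads. Of 100809 rows, 90627 matched GENCODE 29 by identifier. Unmatched rows held 3.26% to 3.57% of each library's total and were left out.

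Differences were tested with limma 3.58.1 (trend, two-sided, Benjamini-Hochberg over all genes) on log2(value + 1), keeping genes whose mean was at least 10. This scale understates the change of low genes. edgeR 4.0.16 and DESeq2 1.42.0 ran on recovered reads as alternatives, beside other pseudocounts, filters and scalings, same-version or single transcripts and left-out libraries. Transcript shares were tested after the data were seen. Exon sequences came from the GRCh38 transcripts of GENCODE 29.

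The members and gene lists were chosen with earlier results of these data known. All members are accounted for. Values in every library are given for members called in either comparison, the 3 with the smallest p in each direction between mimic and control and the 2 highest levels of each class, and of the wider list the 4 with the smallest p in each comparison. A gene that this rule takes is not reported here. Other genes were named after their values were seen. Symbols of the lists without a matched row were not analysed here.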

Additional observations from a re-analysis of the deposited data

How the results depend on the processing

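Between mimic and control, 0 members and 0 genes of the wider list passed under every alternative run. With replicate number as a replicate block, 0 members and 117 of all genes passed, and 3 members (ZYX, ITGA5 and PXN) and 1021 genes were under an unadjusted limit of 0.05. The smallest adjusted p of a member with the block was 0.11 for ZYX by limma. In this fit limma gave each gene the variance fitted over all genes at its level. Its p-values thus do not rest on the gene's own spread. The number pairs only 2 libraries per treatment and the labels do not say that it pairs them. Deviations of same-numbered libraries correlated with r = 0.745 over all genes, and genes are no replicates. The members' mimic median of -0.092 ran from -0.21 (without control 2) to 0.15 (without control 1) when single libraries were left out. The sign also turned for ITGA1 (-0.092 to 0.48) and ITGA5 (-0.58 to 0.097) among left-out libraries. With 1 library left out, the numbers are held unequally by the treatments, so these values mix number with treatment. For ITGA3 the sign turned with same-version transcripts (0.089), which leave out ITGA3-202 and with it 93.1% to 94.6% of the gene's value.

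Between numbers, 13 to 24 members and 25 to 39 genes of the wider list passed when 1 library was left out, with medians of -0.32 to -0.26. Same-version transcripts, which leave out the main transcript of many members, gave 11 members, 22 genes of the wider list and a median of -0.41. The filter at a mean of 1 gave a median of -0.26. Transcripts tested singly gave 13 members. Treatment as a term gave 24, with p-values that likewise rest on a variance fitted over all genes. Signs turned only for members that did not pass: ITGA3 (-0.054 to 0.22), ITGB1 (-0.26 to 0.0041), ITGB3 (-0.019 to 0.14) and ACTN1 (-0.0093 to 0.15) among left-out libraries, ITGB3 (-0.057) and ACTN1 (-0.051) under quantile normalization, and ITGA3 (-0.035) and FLNA (-0.28) with same-version transcripts. The cause was not tested. The mean alpha to beta ratio was 1.34 with the length of each gene's main transcript. Low counts limited ITGB7, ITGA8 and ITGA9.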
